A study of Mus musculus with 9 samples.

Results

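Wild type (WT) mouse J1 embryonic stem cells (ESCs) were sequenced on day 2 and day 4 of differentiation, and the change between these 2 days is described here over all 15074 genes and 38385 repeat copies of the deposited tables. The comparison rests on 2 of the 9 libraries of the series, 1 for each day. The other libraries are WT cells on day 0 and 2 Dnmt1-null lines on days 0, 2 and 4, namely 1KO cells (Dnmt1-/-) and 1KO+1CI cells, which are 1KO cells with a CAG-driven transgene for the catalytically inactive DNMT1 C1229S protein. The column of the transgenic line carries 1 clone number. All cells were kept on mitomycin C-treated mouse embryonic fibroblasts (feeders) before differentiation, then depleted of feeders on gelatin, aggregated into embryoid bodies without LIF and plated as adherent cultures. Each library holds poly(A) RNA of a mixed culture, in which fewer cells of a type and less RNA per cell cannot be told apart.

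Mouse ESCs in LIF keep the naive state of the preimplantation epiblast, held by factors such as Esrrb, Tfcp2l1 and Klf2. Without LIF they lose this network, pass through a formative state marked by Fgf5, Otx2, Pou3f1 and Dnmt3b, in which Pou5f1 stays on, and then become competent to form the primitive streak and the germ layers. DNA methylation is laid down by DNMT3A and DNMT3B with DNMT3L, is copied by DNMT1 with UHRF1, and is opposed by the TET enzymes.

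With 1 library per day the spread between cultures is unknown, and no test was run. Levels are FPKM, reads per 1000 bases of transcript scaled to library size. Differences are day 4 minus day 2 in log2(FPKM + 1), a scale that understates the change of genes with low levels. A gene is said to have risen or fallen when this difference was at least 1 in size, which is 2-fold on this scale. Depth was recovered from the steps between low FPKM values and came to 24300000 reads on day 2 and 20900000 on day 4 if 1 step is 1 read, within a range of 20300000 to 27900000 over the 9 libraries. At that depth, 1 FPKM over 1000 bases is 24 reads on day 2 (95% Poisson interval 15.4 to 35.7) and 21 reads on day 4 (13.0 to 32.1). Such intervals cover counting error only.

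Between day 2 and day 4, 16 of 20 naive pluripotency genes fell and 10 of 18 formative genes rose, and of all genes Esrrb had the lowest difference and Fgf5 the highest. Of the 15074 genes, 577 rose (3.83%) and 647 fell (4.29%). The median difference was 0.01, and the middle 90% of genes lay between -0.94 and 0.89. A total of 12335 genes reached 1 FPKM on either day. All genes that rose or fell were among them, which the scale requires, and made up 4.68% and 5.25% of them. With both libraries rescaled to the same summed FPKM, the median gene shifted by -0.10, and 437 genes rose while 878 fell, so the share of rises among the calls went from 47.1% to 33.2%. The median difference per chromosome ran from -0.04 (chromosome 19) to 0.07 (chromosome X).

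**Figure D1:**
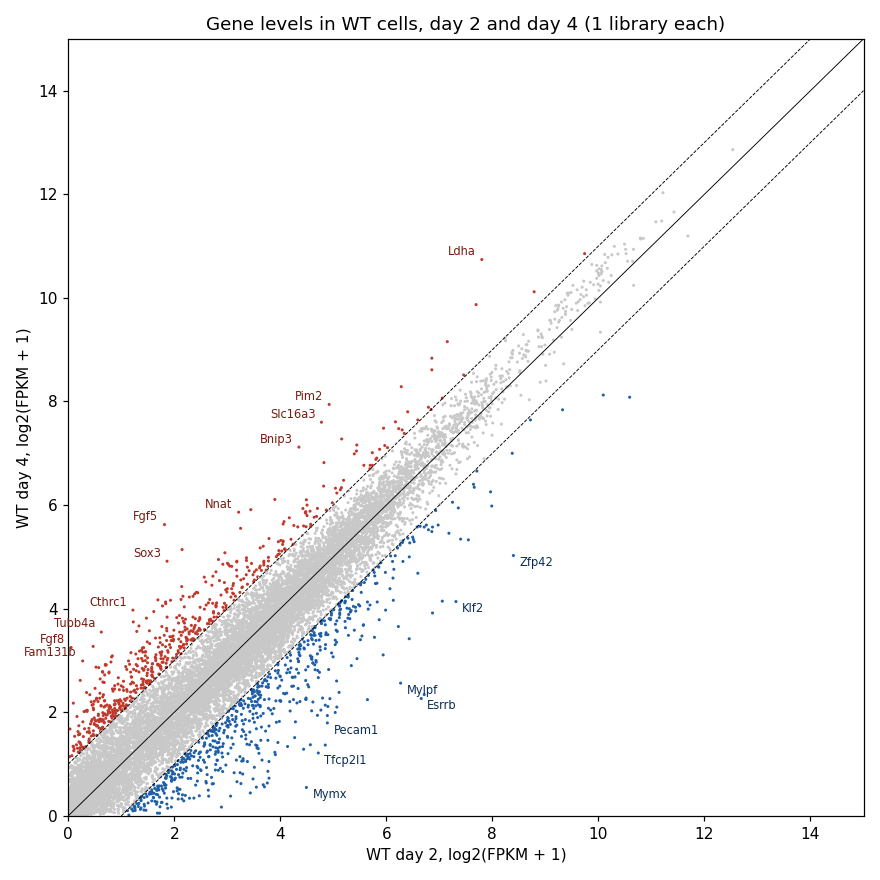
Each point is 1 gene, with its level on day 2 on the horizontal axis and on day 4 on the vertical axis, both in log2(FPKM + 1), in WT cells with 1 library per day. The solid line is equality and the dashed lines are a difference of 1. Red points rose (577 genes) and blue points fell (647 genes). Some of the 15 highest and 15 lowest genes are labelled. Esrrb lies farthest below the solid line and Fgf5 farthest above it.

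Of the 15 deepest falls over all genes, 6 were of naive list genes. Esrrb (chr12:86361117-86521628, plus strand), an orphan nuclear receptor of the naive network, was at 100 FPKM on day 2 and 3.81 on day 4, a difference of -4.40. Its day 0 level, 96.5 FPKM, was close to that of day 2. Nr0b1 (Dax1), another nuclear receptor of ESCs, went from 104 to 4.07 FPKM, after 33.8 on day 0. Tfcp2l1, which with Esrrb maintains self-renewal downstream of LIF, went from 25.3 to 1.32 FPKM. The zinc finger gene Zfp42 (Rex1), the customary reporter of the naive state, went from 336 to 31.6 FPKM and Klf2 from 158 to 16.6 FPKM. These 5 genes were at or above their day 0 level on day 2, apart from Klf2, which was slightly below it (161 FPKM on day 0), and all of them were far lower on day 4. The third and the fourth deepest falls were of muscle genes, Mymx (21.5 to 0.463 FPKM, -3.95), whose product drives myoblast fusion, and Mylpf (76.1 to 4.91 FPKM, -3.71), a fast muscle myosin light chain. Laptm5 (20.7 to 1.44 FPKM), a lysosomal membrane protein gene of blood cells, the adhesion genes Jam2 (12.5 to 0.553 FPKM) and Pecam1 (28.6 to 2.47 FPKM), H2-M5 and the neurotrophin receptor gene Ngfr were also among the 15.

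All 20 measured naive genes had a negative difference and 16 of them fell, with a list median of -2.25 beside 0.01 over all genes. The list was summed to 1190 FPKM on day 0, 1300 on day 2 and 236 on day 4. The 4 members that did not pass 1 were Stat3 (-0.14), Socs3 (-0.28), Nanog (-0.65) and Klf4 (-0.98). Stat3, the transcription factor that LIF activates, its target Socs3 and Klf4 were already low on day 2. Klf4 was at 30.3 FPKM on day 0, 2.45 on day 2 and 0.749 on day 4, and Socs3 was at 24.4, 2.17 and 1.6 FPKM. So the naive genes did not all drop in the same interval in WT cells: Esrrb, Nr0b1, Zfp42, Klf2, Tfcp2l1 and Tbx3 (5.27 to 0.302 FPKM) were low only on day 4. Dppa3 (Stella) dropped in steps, with 35.7, 9.68 and 2.57 FPKM.

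The core pluripotency genes moved far less than the naive ones. Pou5f1 (Oct4) was at 980 FPKM on day 2 and 1010 on day 4, a difference of 0.04. Sox2, its partner on DNA, went from 199 to 83.5 FPKM and fell (-1.24). Nanog went from 89.5 to 56.8 FPKM, after 163 on day 0. Of the 15 core genes measured, 2 fell, Sox2 among them, 1 rose (Tdgf1, the Nodal co-receptor, 175 to 364 FPKM) and the median was -0.24. Lin28a, which blocks let-7 maturation, was at 91.9 and 156 FPKM (0.76).

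The formative genes formed the counterpart. Fgf5 (chr5:98254184-98277030, plus strand), a secreted growth factor and the classical marker of the postimplantation epiblast, was at 6.97 FPKM on day 0, 2.52 on day 2 and 48.3 on day 4. Its difference of 3.81 was the highest of all genes. Sox3, a SOXB1 factor of early epiblast and neural cells, went from 2.64 to 29.2 FPKM (3.05), and the kinase gene Pim2 from 29.3 to 245 FPKM (3.02). Dnmt3b went from 115 to 390 FPKM (1.76) and Pou3f1 (Oct6) from 21.7 to 63.0 FPKM (1.49). Of the 18 formative genes measured, 10 rose, none fell below -1, and the median was 1.08. Otx2 was at 31.2 and 58.6 FPKM (0.89), just short of the limit. Etv4 was the lowest member (37.8 to 19.2 FPKM, -0.94).

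The promoters of Fgf5 and Esrrb, the genes at the ends of the ranking, differ in CpG content and are shown for that reason. Both windows run from 250 bases before to 50 bases after the start given by RefSeq for GRCm38.p6 (mm10), on the plus strand, at chr5:98253934-98254233 for Fgf5 and chr12:86360867-86361166 for Esrrb. CG pairs are in capitals.
Fgf5: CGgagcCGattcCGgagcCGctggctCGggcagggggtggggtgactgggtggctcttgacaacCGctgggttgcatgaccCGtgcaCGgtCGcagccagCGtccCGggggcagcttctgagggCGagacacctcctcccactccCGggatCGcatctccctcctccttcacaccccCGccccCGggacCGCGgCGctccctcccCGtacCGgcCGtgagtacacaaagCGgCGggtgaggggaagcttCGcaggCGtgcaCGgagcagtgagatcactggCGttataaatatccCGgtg
Esrrb: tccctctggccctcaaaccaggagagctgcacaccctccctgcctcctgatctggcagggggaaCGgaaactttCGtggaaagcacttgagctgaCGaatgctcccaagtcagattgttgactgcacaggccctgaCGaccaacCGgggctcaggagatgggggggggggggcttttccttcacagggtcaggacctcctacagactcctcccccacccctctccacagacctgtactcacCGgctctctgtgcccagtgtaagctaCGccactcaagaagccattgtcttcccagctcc
The Fgf5 window holds 29 CG pairs and an observed to expected CpG ratio of 0.828, and the Esrrb window 7 pairs and a ratio of 0.266. Windows of this kind were found for 11638 of the genes. A ratio of 0.6 or more was present in 69.7% of these windows, in 59.0% of the 410 windows of genes that rose and in 51.2% of the 469 windows of genes that fell. Among the 15 naive genes with a window, 7 reached that ratio (46.7%). These shares are descriptions of the windows, and methylation was not measured in these files.

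**Figure D2:**
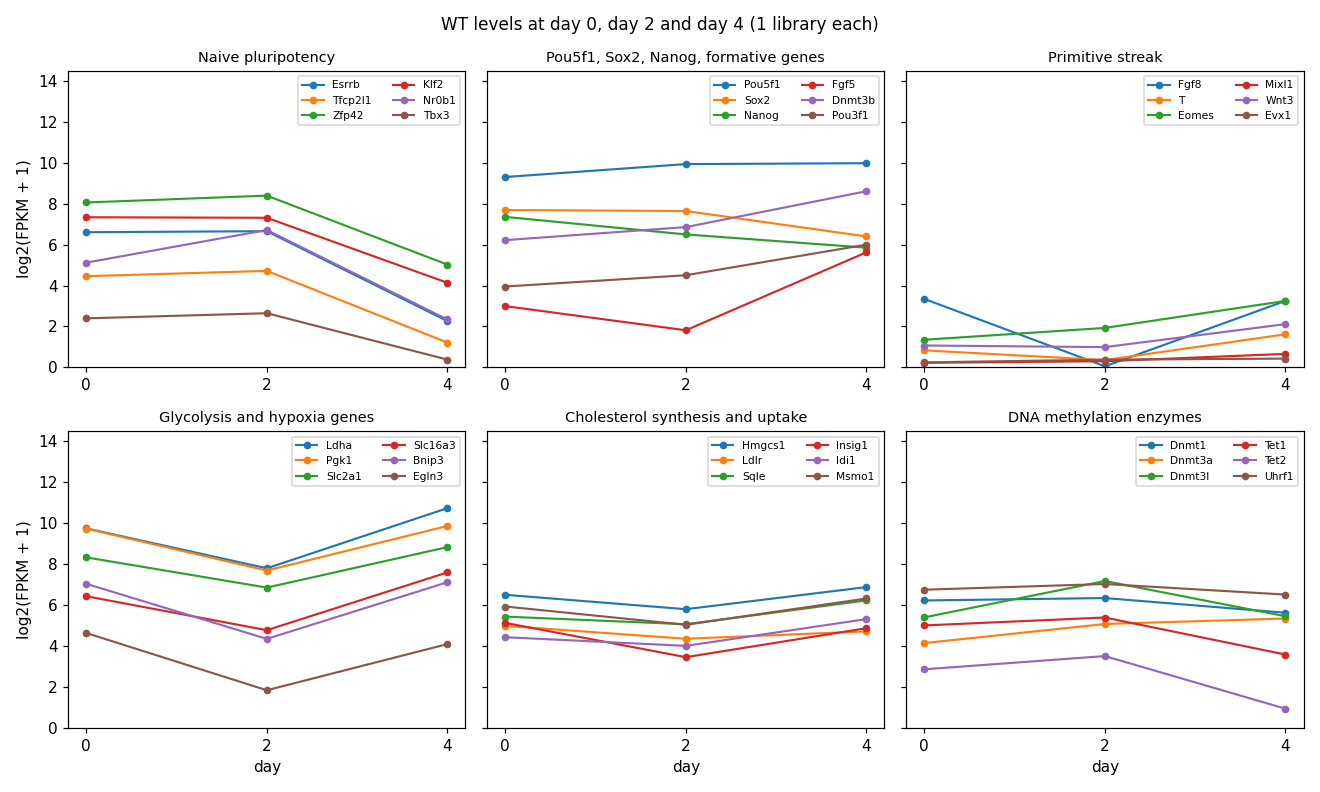
Levels of chosen genes in WT cells in log2(FPKM + 1) on days 0, 2 and 4, 1 library per day, in 6 panels. The naive genes drawn are near or above their day 0 level on day 2 and lower on day 4. Other naive genes, such as Klf4 and Socs3, were already low on day 2 and are not drawn. The glycolysis and hypoxia genes drawn are lowest on day 2, and Pou5f1 changes by 0.04 between day 2 and day 4.

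Among genes of later lineages, 5 of the 14 measured primitive streak genes rose, each from a level under 6 FPKM. Fgf8, a growth factor of the streak, was at 9.17 FPKM on day 0, 0.038 on day 2 and 8.51 on day 4. Its day 2 value is about 1 read, so the ratio of 224 has a counting interval of 33.5 to 7530. Brachyury (T), which marks nascent mesoderm, was at 0.282 and 2.07 FPKM (1.26), about 8 and 50 reads. Eomes, a T-box factor of mesendoderm, was at 2.81 and 8.51 FPKM (1.32). Wnt3, which starts the streak but was counted in the formative list here, was at 0.988 and 3.33 FPKM (1.12). Wnt8a (0.894 to 3.67 FPKM) and Fst (5.68 to 14.1 FPKM), which binds activin, were the other genes of the streak list that rose. None fell, and the list median was 0.33. Mixl1 (0.233 and 0.581 FPKM) and Evx1 (0.299 and 0.347 FPKM) stayed below 1 FPKM on both days. Evx1 had about 14 reads on each day (counting interval of the ratio 0.514 to 2.63), and a change was not detectable at this depth.

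The other lineage lists had medians between 0.01 and 0.23. The mesoderm list had a median of 0.04 over 14 measured genes. Over the 5 that reached 1 FPKM on either day it was 1.23, but this filter takes in genes through the day on which they are high. Etv2, Tal1 and Tbx20 (0.771 and 1.05 FPKM) reached 1 FPKM on day 4 only. The genes that rose were Etv2 (0.748 to 6.84 FPKM), which specifies blood and vessel precursors, Tal1 (0.311 to 2.23 FPKM), a blood factor, and Twist1 (2.22 to 6.53 FPKM). Bmp4 fell in the same list (18.5 to 2.52 FPKM, -2.47). The primitive endoderm list had a median of 0.23 over 20 genes, with rises of the adaptor Dab2 and of Amn and a fall of the basement membrane gene Nid1 (10.8 to 4.35 FPKM). Its defining factors were low on both days: Gata4 was at 1.15 and 1.56 FPKM, Gata6 at 0.206 and 0.194, Sox7 at 0.126 and 0.305, and Sox17 at 0.0582 and 0.305. Sox17 had about 2 and 11 reads. Neural genes had a median of 0.09 over 18 genes. The neurofilament genes Nefl (12.8 to 39.9 FPKM) and Nefm (3.11 to 7.37 FPKM) rose and Sox21 (2.85 to 0.125 FPKM) fell, while the early neural factors Pax6 (2.99 and 1.64 FPKM) and Sox1 (1.94 and 0.87 FPKM) were low. Of 12 trophoblast and surface ectoderm genes, 1 rose (Eomes) and 2 fell (Tfap2c, 14.0 to 1.27 FPKM, and Grhl3), with a median of 0.09 and a mean of -0.20. None of the 11 listed HOX genes, which pattern the body axis, rose or fell, and 1 of them reached 1 FPKM on either day.

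Germ cell genes went both ways. Of the 19 measured, 4 rose and 4 fell, with a median of -0.19. Mael, a piRNA pathway gene, went from 2.57 to 8.63 FPKM, and Ddx4 (Vasa), an RNA helicase of germ cells, from 6.13 to 14.0 FPKM. Nanos3, needed for primordial germ cell survival, went from 4.17 to 0.269 FPKM and Prdm1 (Blimp1) from 4.86 to 1.11 FPKM. All 12 measured genes of the 2-cell stage program had positive differences, with a median of 0.53, but at low levels: Zscan4d was at 1.05 and 2.53 FPKM, and only Arg2 rose (0.233 to 1.48 FPKM, about 8 and 44 reads). Several of the Usp17l and Zscan4 genes are near-identical copies, and reads shared between them make their values uncertain.

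Feeder genes were checked because feeder cells could be carried over. Of the 24 listed, 20 were measured and 16 reached 1 FPKM on either day. None rose, 1 fell (Fn1, 115 to 43.9 FPKM), and the median was -0.09. The summed level of the list was 594 FPKM on day 0, 323 on day 2 and 291 on day 4. The fibroblast collagen genes were low on both days, with Col1a1 at 4.17 and 5.07 FPKM, Col1a2 at 2.2 and 1.85, and Col3a1 at 0.364 and 1.55. Their day 0 levels were 39.0, 25.2 and 13.1 FPKM. The part of feeder RNA in the other gene groups was not tested.

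**Figure D3:**
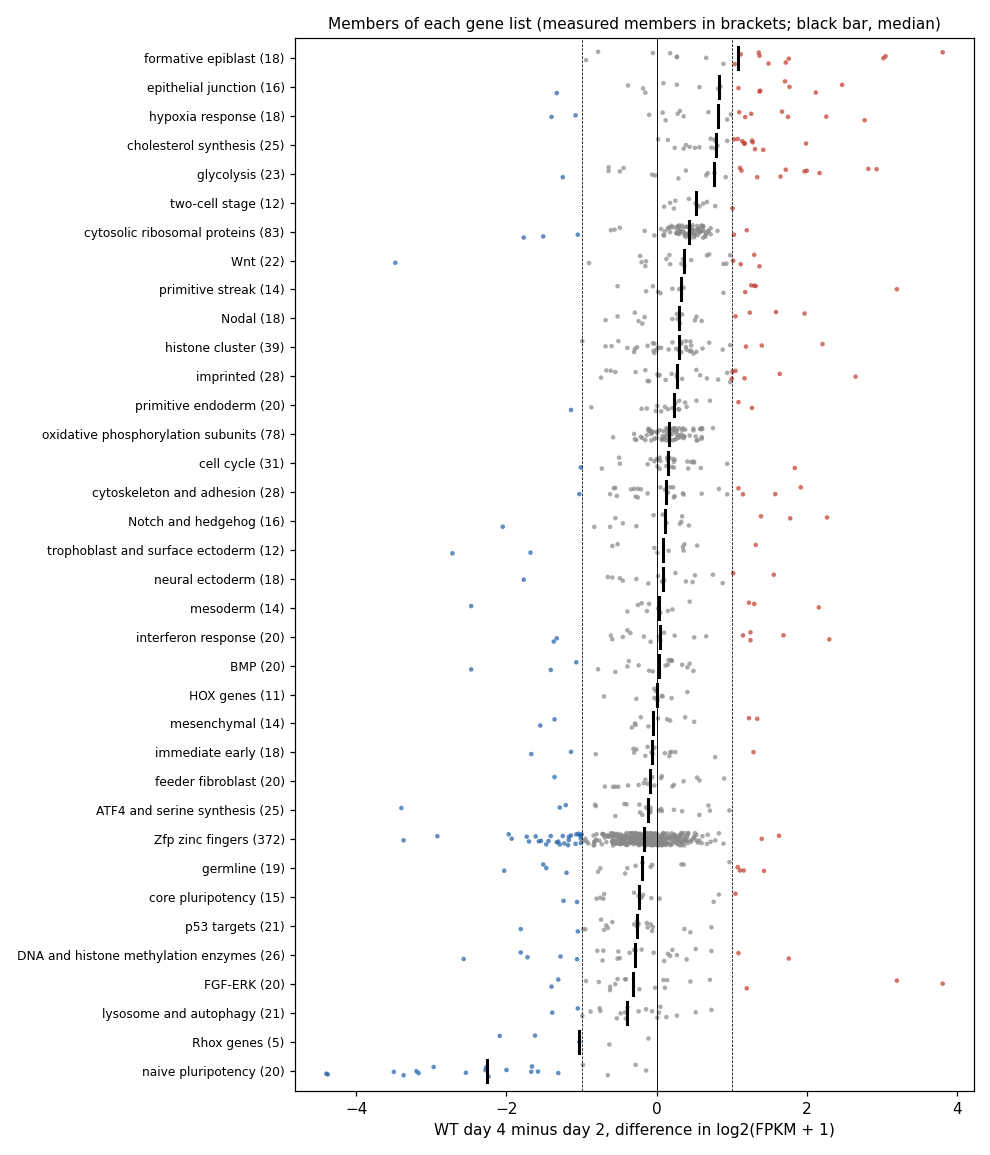
Difference between day 4 and day 2 in log2(FPKM + 1) in WT cells for every measured member of 36 gene lists, 1 point a gene, with the list size in brackets, a black bar at the list median and dashed lines at 1 and -1. The naive list lies lowest (median -2.25) and the formative list highest (1.08). The glycolysis, hypoxia, cholesterol and epithelial junction lists have medians between 0.77 and 0.84.

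Epithelial junction genes had the second highest list median, 0.84 over 16 genes, with 7 that rose and 1 that fell. The tight junction genes Cldn7 (9.88 to 59.2 FPKM), Cldn6 (34.7 to 154 FPKM) and Cldn3 (3.28 to 13.6 FPKM) rose, as did Ocln (2.31 to 9.84 FPKM). E-cadherin (Cdh1) was at 181 and 268 FPKM (0.57), and the desmosome and adherens junction gene Jup fell (55.6 to 21.5 FPKM). The 14 mesenchymal genes had a median of -0.04. Vim was at 97.8 and 77.9 FPKM and N-cadherin (Cdh2) at 5.35 and 6.21 FPKM, Zeb1 fell (2.32 to 0.13 FPKM), and Mmp2, a matrix protease, rose (7.62 to 20.8 FPKM).

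Glycolysis genes made up 6 of the 10 most abundant genes on day 4 that had changed. Ldha, the lactate dehydrogenase subunit that turns pyruvate into lactate, was at 862 FPKM on day 0, 222 on day 2 and 1710 on day 4, a difference of 2.93 between the last 2 days. Slc16a3, the lactate exporter MCT4, was at 85.6, 26.4 and 193 FPKM. Pgk1 went from 206 to 935 FPKM and Tpi1 from 141 to 569 FPKM, both being enzymes of the pathway. Slc2a1, the glucose transporter GLUT1, went from 115 to 456 FPKM. Aldoa (441 to 1110 FPKM) and Pkm (854 to 1850 FPKM) rose by 1.34 and 1.11. These genes were lowest on day 2, and on day 4 they were between a little below and well above their day 0 levels (Aldoa, 1350 FPKM on day 0, and Pkm, 1620).

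Of the 23 glycolysis genes measured, 10 rose and 1 fell (Pfkp, 37.3 to 15.1 FPKM), with a median of 0.77. Their summed level was 8590, 3870 and 9750 FPKM on days 0, 2 and 4. Members that did not rise included the other isoforms: the glucose transporter Slc2a3 was at 156 and 204 FPKM, Hk2 at 35.4 and 43.7, Hk1 at 7.26 and 4.87 and Ldhb at 184 and 135. Gapdh, which has many near-identical pseudogene copies, is listed at 12.8 and 7.85 FPKM, and this value is uncertain. Of the 18 hypoxia-response genes, 7 rose and 2 fell, with a median of 0.81. Bnip3, a mitophagy receptor, was at 131, 19.4 and 138 FPKM on the 3 days. The prolyl hydroxylases that mark HIF for decay followed the same order, with Egln3 at 23.9, 2.58 and 16.1 FPKM and Egln1 at 21.8, 5.54 and 20.9. Vegfa, a widely used HIF target, was at 11, 10.8 and 9.98 FPKM, and Hmox1, the haem oxygenase induced by oxidants, fell (420 to 199 FPKM, after 54.7 on day 0). Among the 15 highest rises over all genes were 2 carbonic anhydrase genes, Car4 (3.43 to 34.3 FPKM) and Car14 (1.34 to 12.4 FPKM), and Ndufa4l2 (0.385 to 8.66 FPKM), whose product lowers complex I activity.

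The promoter windows of the 4 genes of these lists with the highest differences are shown because hypoxia-inducible factors bind cores of the letters ACGTG. Capitals mark ACGTG on either strand (CACGT on the strand printed), and where CACGTG occurs the matches of both strands overlap. The windows are chr7:46845554-46845853 (plus) for Ldha, chr11:120948817-120949116 (plus) for Slc16a3, chr7:138909457-138909756 (minus) for Bnip3 and chr12:54203825-54204124 (minus) for Egln3, all from RefSeq on GRCm38.p6.
Ldha: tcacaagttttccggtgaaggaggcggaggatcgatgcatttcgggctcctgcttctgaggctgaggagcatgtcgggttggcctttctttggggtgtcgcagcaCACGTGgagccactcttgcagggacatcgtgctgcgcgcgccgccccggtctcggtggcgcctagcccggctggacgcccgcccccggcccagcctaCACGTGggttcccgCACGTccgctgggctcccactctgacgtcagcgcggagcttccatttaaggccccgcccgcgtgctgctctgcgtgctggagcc
Slc16a3: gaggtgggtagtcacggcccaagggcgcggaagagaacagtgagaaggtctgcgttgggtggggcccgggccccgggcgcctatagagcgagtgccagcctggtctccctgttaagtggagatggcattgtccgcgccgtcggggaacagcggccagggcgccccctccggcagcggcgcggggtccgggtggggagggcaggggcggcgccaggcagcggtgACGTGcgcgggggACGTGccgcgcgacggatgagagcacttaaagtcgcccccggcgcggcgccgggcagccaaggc
Bnip3: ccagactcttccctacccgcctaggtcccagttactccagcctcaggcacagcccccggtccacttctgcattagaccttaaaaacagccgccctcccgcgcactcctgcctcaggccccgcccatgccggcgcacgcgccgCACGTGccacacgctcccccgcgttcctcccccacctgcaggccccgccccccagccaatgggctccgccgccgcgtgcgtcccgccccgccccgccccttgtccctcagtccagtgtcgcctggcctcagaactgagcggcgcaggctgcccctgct
Egln3: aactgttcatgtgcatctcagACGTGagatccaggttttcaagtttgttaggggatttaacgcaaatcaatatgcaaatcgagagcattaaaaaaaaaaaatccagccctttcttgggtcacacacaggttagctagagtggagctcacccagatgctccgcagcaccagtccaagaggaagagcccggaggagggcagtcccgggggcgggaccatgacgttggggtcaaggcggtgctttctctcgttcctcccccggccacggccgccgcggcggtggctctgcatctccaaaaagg
The Ldha window holds 5 matches, those of Slc16a3 and Bnip3 2 each, and that of Egln3 1. The letters were found in 19 of 35 windows of the glycolysis and hypoxia lists (54.3%). Among the 17 whose gene rose, 13 held them (76.5%). They were found in 25.3% of the 11638 windows of all genes and in 27.6% of the 410 windows of genes that rose. The CpG ratio limit given above was reached in 88.2% of those 17 windows, 71.4% of the 35 and 69.7% of all windows. ACGTG holds a CG pair, and the part of CpG content in these shares was not tested. Runs such as GCGTG were not counted. The hypoxia list was made of genes of the hypoxia response, so the way it was made may favour a high share. The 17 windows were also chosen by the day 4 minus day 2 differences. A match is a run of letters and not evidence of binding, and a role of these factors was not tested.

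Cholesterol synthesis genes had positive differences throughout. All 25 measured were higher on day 4, 10 of them rose, and the median was 0.79. Hmgcs1, which makes the HMG-CoA used for mevalonate, was at 89.8, 54.8 and 117 FPKM on days 0, 2 and 4, and Sqle, the squalene epoxidase, at 42.4, 32.5 and 74.2. Insig1, which restrains SREBP, was at 34.1, 9.98 and 28.3 FPKM. Ebp had the lowest difference of the list, at 9.22 and 9.39 FPKM (0.02). ACGTG was found in 3 of the 17 windows of these genes (17.6%).

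Genes of other metabolic and stress programs moved little or downward. The 25 ATF4 and serine synthesis genes had a median of -0.11, with no rise and 3 falls. These were Nupr1 (49.0 to 3.74 FPKM), a stress-induced chromatin protein, Cth (116 to 46.7 FPKM) and Sesn2 (68.4 to 29.1 FPKM). Nupr1 had been at 9.71 FPKM on day 0. The 21 p53 target genes had a median of -0.26 and 18 were lower on day 4, with falls of Gdf15 (9.74 to 2.07 FPKM) and Trp53inp1 (98.6 to 47.2 FPKM). The p53 antagonist Mdm2 was at 109 and 54.6 FPKM (-0.98), and the cell cycle inhibitor Cdkn1a at 48.6 and 39.3 FPKM (-0.30). Lysosome and autophagy genes had a median of -0.39 over 21 genes, and 2 fell, among them the autophagy receptor gene Sqstm1 (208 to 99.9 FPKM). The metal-binding protein gene Mt1 was among the 10 most abundant genes on day 4 that had changed, at 1090 and 278 FPKM (-1.97), after 240 on day 0.

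Of the 83 cytosolic ribosomal protein genes, 75 were higher on day 4, with a median of 0.43 and a summed level of 62400 and 84700 FPKM. This list has short transcripts (median 712 bases), and the difference of all genes varied with transcript length, from a median of 0.16 in the shortest of 10 equal bins to -0.11 in the longest (Spearman correlation across 12172 genes, -0.154). Centred on genes of like length, the median of the ribosomal list was 0.31, and with both libraries rescaled to the same sum 0.27. The part of length in these values was not tested. Many of these genes have processed pseudogene copies, which makes single values such as those of Rpl34 (11.3 and 27.3 FPKM) uncertain. The 78 oxidative phosphorylation subunit genes had a median of 0.17 and none rose or fell. Of 31 cell cycle genes, Mycl rose (3.56 to 15.4 FPKM) and Myc fell (33.6 to 16.2 FPKM), with a median of 0.15. Mki67 was at 25.7 and 28.5 FPKM.

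Enzymes that write, copy and remove DNA methylation changed in different directions. Dnmt3b rose to 390 FPKM, as given above, while Dnmt3a was at 32.8 and 39.7 FPKM (0.27). Dnmt3l, the cofactor without catalytic activity, was at 41.3, 144 and 42.9 FPKM on days 0, 2 and 4 and fell between the last 2 days (-1.72). Dnmt1 was at 80.4 and 48.5 FPKM (-0.72) and Uhrf1 at 130 and 90.6 FPKM (-0.51). Tet1 (41.1 to 11 FPKM) and Tet2 (10.4 to 0.916 FPKM) fell, and Tet3 was low on both days (2.01 and 2.22 FPKM). The glycosylase gene Tdg, which removes oxidized cytosines, rose (6.88 to 15.7 FPKM). Of the 26 DNA and histone methylation genes measured, 2 rose, 5 fell and the median was -0.29. The 2 other falls were of Jarid2 (110 to 45.0 FPKM), a partner of the PRC2 complex, and Kdm3a (44.7 to 21 FPKM), an H3K9 demethylase. Of the PRC2 subunits, Suz12 was at 68.2 and 39.0 FPKM, Eed at 71.7 and 43.4 and the methyltransferase Ezh2 at 47.6 and 54.1. The H3K9 methyltransferase genes Ehmt1 (30.1 and 24.6 FPKM) and Ehmt2 (51.3 and 35.4 FPKM) and the deacetylase genes Hdac1 (93.0 and 123 FPKM) and Hdac2 (93.1 and 103 FPKM) did not pass the limit.

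Among 372 Zfp genes, a family that includes many KRAB zinc finger repressors, 27 fell and 2 rose, with a median of -0.17. Over all genes, 4.29% fell and 3.83% rose. The median transcript of the list has 2264 bases. Among genes of at least 1 FPKM, the median difference was -0.06 for transcripts of 1975 to 2299 bases. The part of length in the Zfp values was not tested. Zfp57, which protects methylation at imprinted loci, went from 132 to 16.7 FPKM after 37.0 on day 0. Zfp608 and Zfp946 were the 2 that rose. Imprinted genes had a median of 0.27 over 28 genes, with 6 rises and no fall. Nnat was at 10.6, 8.28 and 57.2 FPKM on the 3 days, and Magel2 (0.835 to 4.71 FPKM), Gnas, Snrpn, Ndn and Phlda2 also rose. H19 was at 6.8 and 7.98 FPKM and Igf2 at 11.2 and 16.7. Of the 5 Rhox genes measured, an X-linked homeobox cluster, 3 fell, namely Rhox5 (31.2 to 14.8 FPKM), Rhox6 (8.44 to 1.21 FPKM) and Rhox9 (8.74 to 2.17 FPKM).

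In the signalling lists, ligands, receptors and feedback genes were mixed. Of 20 FGF-ERK genes, the ligands Fgf5, Fgf8 and Fgf15 (11.9 to 28.6 FPKM) rose, and the ligand of naive cells Fgf4 (54.5 to 21.4 FPKM) and the inhibitor Spry4 (43.5 to 15.9 FPKM) fell. The ERK phosphatase gene Dusp6 was at 21.5 FPKM on day 0, 60.0 on day 2 and 59.1 on day 4, and the list median was -0.32 and its mean 0.09. Of 22 Wnt genes, 4 rose and 1 fell. The rises were of the ligand genes Wnt8a and Wnt3, the effector Lef1 (3.73 to 11.2 FPKM) and the inhibitor Nkd1, and the fall was of Notum (27.8 to 1.58 FPKM), which inactivates Wnt proteins. Axin2, the common target of the pathway, was at 3.2 and 5.83 FPKM (0.70). Of 18 Nodal genes, 4 rose, among them Lefty1 (41.1 to 126 FPKM), Gdf1 and Tdgf1, while Lefty2 was at 52.7 and 36.4 FPKM and Nodal at 35.1 and 40.9. No BMP gene of 20 rose, and Bmp4 and its targets Id1 (53.6 to 25 FPKM) and Id4 (2.19 to 0.204 FPKM) fell. Of the Notch and hedgehog genes, Dll3 (1.45 to 10.8 FPKM), Smo (7.26 to 27.3 FPKM) and Hes6 (21.2 to 57 FPKM) rose and the hedgehog effector Gli1 fell (22.2 to 4.62 FPKM), and its target Ptch1 was at 24.0 and 15.2 FPKM.

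Of 20 interferon-response and antigen presentation genes, 5 rose and 2 fell, with a median of 0.04. Differences were positive for 11 and negative for 9. H2-K1 went from 8.52 to 45.9 FPKM and H2-D1 from 6.22 to 22.3 FPKM, both being class I histocompatibility genes with near-identical relatives, so that their reads may be shared. Bst2 (74.2 to 177 FPKM), Irf1 (11.9 to 27.7 FPKM) and Isg15 (0.218 to 1.89 FPKM) rose, and Ifitm1 (125 to 48.0 FPKM) and Ddx58, the RNA sensor RIG-I, fell. Irf9, a subunit of the interferon-activated complex ISGF3, was at 3.59 and 2.59 FPKM and did not pass the limit. Of 28 cytoskeleton and adhesion genes, Cnn1, Myl9, Zyx and Tpm4 rose and S100a6 fell, and of 18 immediate early genes Ier3 rose and Egr1 and Nr4a1 fell. Fos was at 34.1, 1.34 and 1.15 FPKM on the 3 days, so its decrease lay before day 2. Of 39 histone genes of the clusters, whose main transcripts lack a poly(A) tail, 3 rose and the median was 0.30.

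The same interval in the Dnmt1-null lines was set beside these values, and it shares no library with the WT comparison. Dnmt1 itself was at 13.7, 17.4 and 12.3 FPKM in 1KO cells and at 315, 129 and 158 FPKM in 1KO+1CI cells on days 0, 2 and 4. Across the 15074 genes the difference between day 4 and day 2 in WT had a Pearson correlation of 0.715 with that in 1KO and 0.569 with that in 1KO+1CI, where the genes share library composition and transcript length and are not replicates. In 1KO cells, 587 genes rose (3.89%) and 548 fell (3.64%), and in 1KO+1CI cells 546 rose (3.62%) and 468 fell (3.1%). Of the 577 genes that rose in WT, 273 rose in 1KO (47.3% of the WT genes and 46.5% of the 1KO genes) and 182 in 1KO+1CI (31.5% and 33.3%). Of the 647 that fell in WT, 324 fell in 1KO (50.1% and 59.1%) and 234 in 1KO+1CI (36.2% and 50%). Moves past 1 in the opposite direction were rare: 1 of the WT rises and 1 of the WT falls in 1KO, and 5 and 8 in 1KO+1CI.

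Genes that rose in WT had a lower day 2 level in WT than in the other lines, which choosing them by the WT day 2 value favours. On day 2 their median level was 2.27 FPKM for WT, 3.89 for 1KO cells and 4.29 for the transgenic line, and on day 4 it was 7.77, 8.76 and 7.93 FPKM. The WT day 2 value was the lowest of the 3 lines for 491 of the 577 (85.1%, against 42.4% of all genes), although this value also chose the genes. Genes that fell stood at medians of 10.7, 7.96 and 7.31 FPKM in the 3 lines on day 2, and of 2.94, 3.13 and 3.49 FPKM on day 4. Their high WT day 2 level is likewise favoured by the choice of genes. Ldha was at 222, 664 and 615 FPKM in the 3 lines on day 2 and at 1710, 1880 and 1150 on day 4. Fgf5 was at 2.52, 14.7 and 16.7 FPKM on day 2 and at 48.3, 86.4 and 67.0 on day 4. Streak genes ended higher in the other lines, with T at 1.26 in WT against 4.34 in 1KO and 4.29 in 1KO+1CI as differences, and list medians of 0.33, 1.83 and 1.62. Whether the intervals differ between the lines could not be tested with 1 library each.

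**Figure D4:**
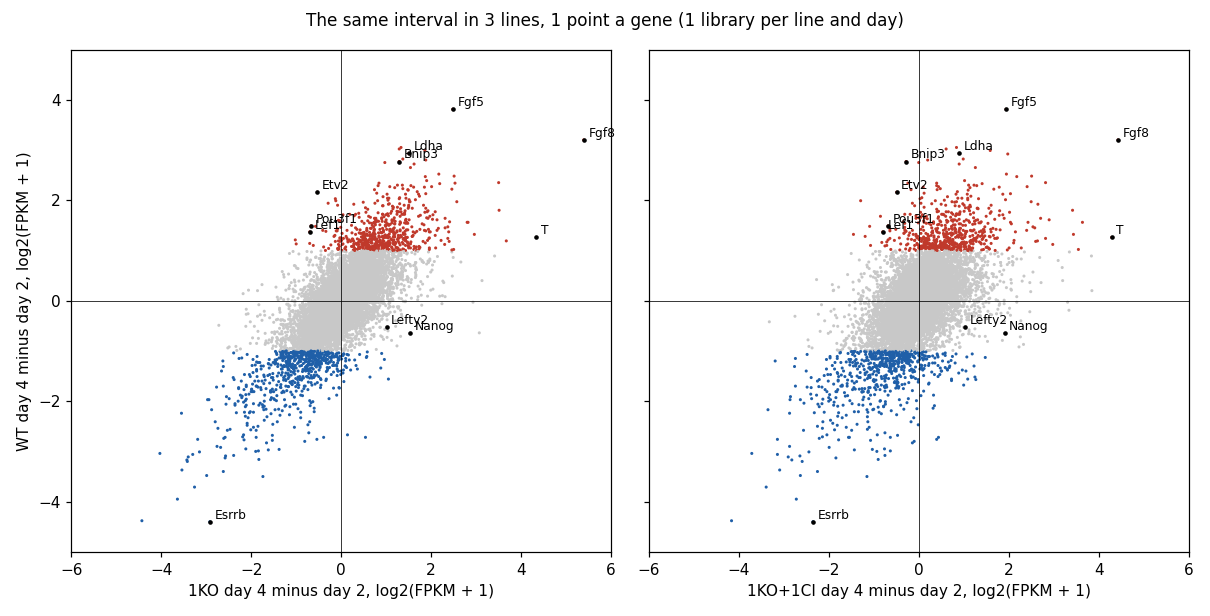
Difference between day 4 and day 2 in log2(FPKM + 1) in WT (vertical) against 1KO (left) and 1KO+1CI (right), 1 point a gene, with 1 library per line and day. Red genes rose and blue genes fell in WT. Past 1 in the opposite direction lie 1 red and 1 blue gene in 1KO and 5 red and 8 blue genes in 1KO+1CI. Nanog and Lefty2, neither red nor blue, also lie past 1 in the opposite direction in both lines. Lef1, Pou3f1 and Etv2 are red and have the opposite sign in both lines, by less than 1.

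Repeat copies were mostly lower on day 4 in WT cells. The median difference over the 38385 copies was -0.21, with 1391 copies that rose (3.62%) and 4314 that fell (11.2%). In 1KO cells 6.41% of copies rose and 9.29% fell, and in 1KO+1CI cells 5.8% rose and 9.99% fell. With factors that set the median repeat copy to 0, 2627 rose and 2405 fell, so the share of rises among the calls went from 24.4% to 52.2%. Factors taken from genes left it at 23.9%. The table gives no positions, so copies inside transcripts of genes were not separated from copies with their own transcripts. LINE copies had a median of -0.37 over 6478 copies, SINE copies -0.19 over 17374, LTR copies -0.17 over 7707 and satellite copies -0.60 over 372. ERVL copies stood at 0.01, and low-complexity runs at -0.01.

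The young L1 families were highest on day 2. L1Md_T, an active LINE-1 family of the mouse, had 1477 listed copies with a mean of 0.460 FPKM on day 0, 1.70 on day 2 and 0.635 on day 4, a difference of -0.73 between the last 2 days. L1Md_A (997 copies, chosen after its values were seen) was at 0.657, 1.67 and 0.505 FPKM (-0.83), and 3 of its copies were higher on day 4. Its median copy stood at -0.75, beside -0.21 over all copies. Copies of a family may share reads and are not replicates. The satellite family MMSAT4 (313 copies, also chosen after its values were seen) was at 16.8, 31.1 and 17.6 FPKM.

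Of the 371 families with at least 10 copies, 1 rose (0.27%) and 4 fell (1.08%). The 5 lowest were the LTR families RLTR42-int (14 copies, 19.8 to 6.10 FPKM, -1.55), RLTR20B1 (11 copies, 2.99 to 0.663 FPKM, -1.26), RMER17D (11 copies, -1.19), RLTR17 (26 copies, -1.16) and MLTR25A (11 copies, -0.98). Without the copy that changed most, RMER17D stood at -0.25 and MLTR25A at -0.28, whereas RLTR20B1 stood at -1.16. The 5 highest were a CAAAAA simple repeat (29 copies, 1.02), MLT1A1 (0.78), Tigger1 (0.66), the rRNA-derived LSU-rRNA_Hsa (0.57) and Lx7 (0.43). In all of them but LSU-rRNA_Hsa (0.49), leaving out 1 copy brought the difference to between -0.33 and -0.06. MERVL-int, the endogenous retrovirus of the 2-cell stage, was next at 0.42 (1.08 to 1.78 FPKM), and 156 of its 169 copies were higher on day 4. Its median copy stood at 0.39, beside -0.21 over all copies. These copies may share reads and are not replicates. Its LTR, MT2_Mm, was at 0.891 and 1.20 FPKM (0.22).

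IAP, ETn and MMERVK10C elements are endogenous retroviruses that DNA methylation is known to silence. The 3 families given here had WT differences between -0.45 and -0.10, beside a median of -0.19 over the 371 families. With median-ratio factors of the repeat copies that median was 0.08, so the sign of small family differences depends on the scaling. IAPEz-int (426 copies) was at 0.792 FPKM on day 2 and 0.563 on day 4 (-0.20), where the differences of the Dnmt1-null lines were 1.66 (1KO) and 2.12 (1KO+1CI). ETnERV-int went from 33.3 to 24.2 FPKM (-0.45), and MMERVK10C-int was at 0.933 and 0.803 FPKM (-0.10). Across copies the WT difference had a Pearson correlation of 0.314 with that in 1KO and 0.262 with that in 1KO+1CI, over 38385 copies of which many are near-identical and share reads.

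**Figure D5:**
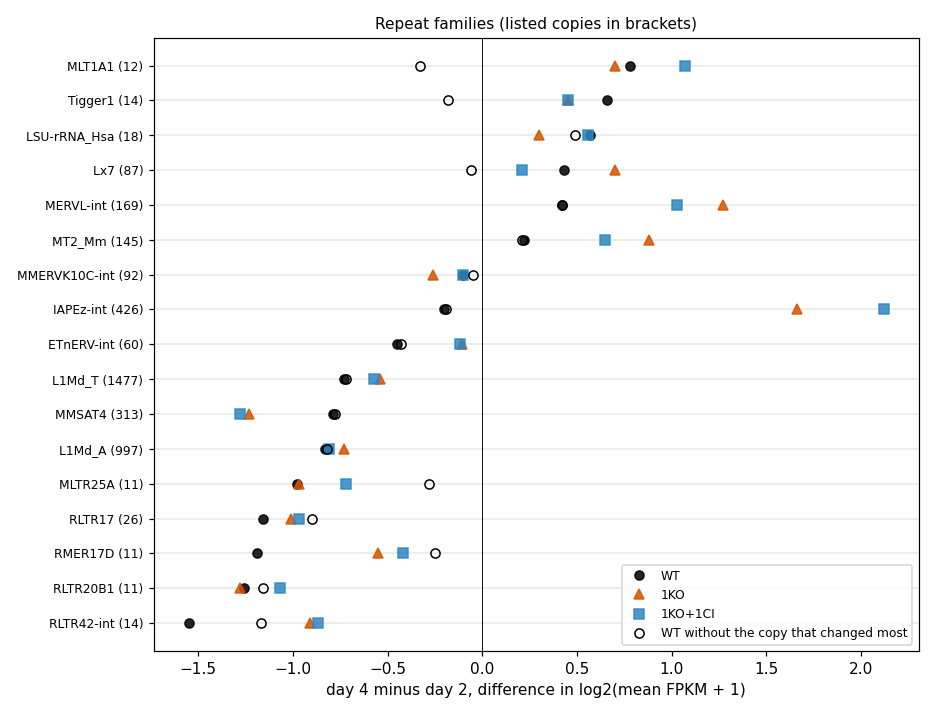
Difference between day 4 and day 2 in log2(mean FPKM + 1) of repeat families with the number of listed copies in brackets, for WT (filled circles), 1KO (triangles) and 1KO+1CI (squares), 1 library per line and day. Open circles give WT without the copy that changed most. IAPEz-int is at -0.20 in WT and at 1.66 and 2.12 in the other lines, and the simple repeat family is not drawn.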

How the data were processed

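RNA-seq libraries of poly(A) RNA from WT, 1KO and 1KO+1CI cells on days 0, 2 and 4 were used, 1 per condition, and grouped by their labels. The authors deposited FPKM values per gene and per repeat copy, which HOMER computed from HISAT2 alignments to mm10 after adapter trimming by Trim Galore and handling by SAMtools. No tool version, strand setting or rule for multiply mapped reads was found in the paper or labels (not given in the sources used here), and such a rule would change repeat values most. The gene table holds 15095 entries, of which 1 named 0 and 20 with a date in place of a symbol were left out. No value is 0.

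Differences were taken as log2(FPKM + 1) of day 4 minus day 2, with a limit of 1. Families are the mean FPKM of their copies. The members and gene lists were chosen with earlier results of these data known. Genes named are the 15 largest rises and 15 deepest falls among genes of at least 1 FPKM on either day, the extremes of each of 36 lists, the marker and epigenetic panel genes of the study, the 10 most abundant changed genes and the 5 highest and 5 lowest families with 6 fixed ones. Other members of the lists are named as examples, chosen after their values were seen. Some genes that this rule takes in are not reported here. No test was run. Depth was recovered as steps shared by all libraries (84.4% of 32203 copies, against 0.134% after a random shift, with a tolerance of 0.15 of a step), set to reads by annotated transcript lengths, and approximate read counts of genes use the mean transcript length. Ratio intervals are exact binomial (Clopper-Pearson, 95%). Gene positions and lengths are from GENCODE M21 (GRCm38, 14856 symbols matched) and promoters from RefSeq (GRCm38.p6). The alternatives tried were a pseudocount of 0.1 or 0.01, genes of at least 1 FPKM on either day, rescaling to 1 sum, median-ratio factors, a threshold of 1.5-fold, other summaries and, added after the values were seen, centring by transcript length or on the median repeat. Scripts (Python 3.11.15, pandas 2.3.3, scipy 1.17.1) were tested on simulated data.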

Additional observations from a re-analysis of the deposited data

Results flagged for a closer look

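4 of the 133 genes taken in by the naming rule moved one way in the WT library pair and the other way in both Dnmt1-null lines, by at least 0.5 on the log2(FPKM + 1) scale in each. The share of all 15074 genes that meet this rule was not counted, and many of the 133 were chosen by their WT difference. Outside the 133, Stard8 fell in WT (-1.56) and moved the other way in 1KO (1.05) and 1KO+1CI (1.09). With 1 library per line and day, the difference between the lines was not tested. Nanog differed by -0.65 in WT (89.5 and 56.8 FPKM on days 2 and 4), by 1.53 in the 1KO line (58.8 and 171 FPKM) and by 1.91 in 1KO+1CI (40.9 and 157 FPKM). Lefty2, a Nodal antagonist, differed by -0.52 (WT), 1.01 (1KO) and 1.04 (1KO+1CI), and its levels on day 2 were 52.7, 63.5 and 59.7 FPKM. Pou3f1 differed by 1.49 in WT (21.7 and 63.0 FPKM), -0.67 in 1KO (67.5 and 42.1 FPKM) and -0.68 in 1KO+1CI (78.2 and 48.5 FPKM). Lef1 differed by 1.37 in WT (3.73 and 11.2 FPKM), -0.70 in 1KO (23.5 and 14.1 FPKM) and -0.80 in 1KO+1CI (25.4 and 14.2 FPKM). The day 4 levels of Lef1 lay closer together over the 3 lines than the day 2 levels. Of the other list genes, Cdkn1c (0.94, -1.15 and -1.50 in WT, 1KO and 1KO+1CI), Grb10 (0.82, -0.76 and -0.63), Taf7l (0.97, -0.66 and -0.57) and Fgf3 (0.71, -0.63 and -0.50) had the same pattern, and both Taf7l and Fgf3 were under 2 FPKM on both days in WT.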

How the results depend on the processing

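No paired analysis was possible because each line and day has 1 library and the labels carry no replicate numbers. Sign changes were seen in the list medians given below, in the median over repeat families and in 2 of the named genes checked. The genes were Tet3 (0.10 to -0.01) and Hdac2 (0.15 to -0.01), both with libraries rescaled to 1 sum. The median over families went from -0.19 to 0.08 with median-ratio factors. Named genes with very small differences, such as Pou5f1 (0.04) and Ebp (0.02), were left out of this check and may change sign. Rises outnumbered falls, in place of the reverse, for genes with either lower pseudocount and for repeat copies with median-ratio factors. Of 252 list medians, 241 moved by less than 0.585, and of 791 values of named genes 723 did. The number of genes that rose and fell was 1416 and 1300 with a pseudocount of 0.1, 1698 and 1550 with 0.01, and 1659 and 1708 at 1.5-fold. For repeat copies it was 3654 and 10374 with 0.1, 4337 and 11296 with 0.01, 2627 and 2405 with median-ratio factors, and 2337 and 2564 when centred on the median copy. Of the families, 20 fell with 0.1 and 22 with 0.01, 2 rose and 2 fell with median-ratio factors, and 0 rose and 1 fell by the median over copies. The naive median was -2.93 with 0.1 and -3.00 with 0.01. The primitive streak median was 1.17, 1.30 and, from 1 FPKM, 1.18, the 2-cell stage median 1.18 with 0.01, and the Rhox median -1.77, -2.01 and -1.62. From 1 FPKM the mesoderm median was 1.23 and the HOX median -0.70. A lower pseudocount enlarges differences of low genes by construction. The filter of 1 FPKM takes in genes through the day on which they are high, which can enlarge a median by itself. With libraries rescaled to 1 sum, the medians of mesoderm (0.00), neural ectoderm (-0.05), BMP (-0.03), Notch and hedgehog (-0.05), cell cycle (-0.01) and cytoskeleton (-0.03) lost their positive sign. By the mean, trophoblast (-0.20), FGF-ERK (0.09), BMP (-0.24) and HOX (-0.02) changed sign, and from 1 FPKM mesenchymal (0.02) and BMP (-0.10) did. Centring by transcript length and on the median copy or family was chosen after seeing the data. Depth limits genes below 1 FPKM, and no spread between cultures can be given.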

Other observations

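The genes below were chosen after their values were seen and are given as values. Psmb8, an immunoproteasome subunit, was at 16.0, 0.438 and 6.32 FPKM on days 0, 2 and 4, and the class II gene H2-Ab1 at 1.95, 0.069 and 3.52 FPKM. Mt2, a metallothionein like Mt1, was at 306, 1540 and 270 FPKM on the 3 days, a difference of -2.50 between the last 2, and its differences were -1.85 in 1KO and -2.25 in 1KO+1CI. Lsm5, a subunit of the ring that binds U6 RNA, was at 33.5 FPKM on day 2 and 4.22 on day 4 in WT, and at 28.1 and 41.4 FPKM in 1KO and 31.1 and 42.4 FPKM in 1KO+1CI. Across 12172 genes of at least 1 FPKM on either day, the rank correlation of the difference with transcript length was -0.154 for WT, -0.0913 for 1KO cells and -0.0265 for the transgenic line.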
